A study of Mus musculus with 2 samples.

Results

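The 38 genes described here encode proteins of myelin and of the mature oligodendrocytes that make it. They were taken by symbol from a list of such genes, chosen with earlier results of these data known. All 38 were found among the 53717 features of the gene lists. Their unique molecular identifier (UMI) counts came from 2 single-cell libraries of hippocampus, 1 per group. All mice carried the 5xFAD transgenes, which lead to amyloid plaques in the brain, and all had received an AAV9 vector whose GFAP promoter is mainly active in astrocytes. The NeuroD1 group received AAV9-GFAP::NeuroD1-P2A-GFP, which carries the proneural transcription factor NeuroD1 with GFP. The GFP group received AAV9-GFAP::GFP. Tissue was taken 3 weeks after injection from 3 mice per group by the series text, and the time given for both groups is 6 months, without saying whether that is the age. The labels give no sex and no uninjected or non-transgenic group. The comparison of the groups asks how the myelin genes stood in oligodendrocytes of hippocampus that had received one vector or the other.

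Oligodendrocytes wrap axons in a multilayered membrane whose proteins and lipids are made in bulk once the cell has matured. Precursors that express Pdgfra pass through a short-lived newly forming stage marked by Enpp6, and the transcription factors Sox10 and Myrf then drive the myelin genes. Because mature cells hold so much myelin RNA and break easily in dissociation, that RNA is commonly found at a low level in droplets or wells of other cell types.

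Totals were 51236521 UMIs over 13402 barcodes for NeuroD1 and 17504950 UMIs over 11739 barcodes for GFP. The 12786 and 11079 cells kept had medians of 2556 and 1168 UMIs. Pairs of values below give the NeuroD1 library first. With 1 library per group there is no replicate, no test between groups was made, and every interval below is a 95% interval of counting error only. The libraries differed in more than the vector: Xist, the RNA of the inactive X chromosome, was at 0.0413 and 103 CPM (counts per 1000000 UMIs), Y-linked Ddx3y at 69.5 and 0.0618 CPM, and the choroid plexus RNA Ttr was 12.96% and 2.24% of all UMIs. Astrocyte-like cells had 551 and 23887 UMIs of the GFP feature, 16 and 2 of Neurod1 and 0 of the ND1 feature, so Neurod1 RNA was too scarce to check the labels. Sex-linked RNA, depth and vector cannot be told apart in what follows. The libraries shared 99 barcodes, of which 91 were kept in both and 21 fell in the same class.

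Member UMIs lay mostly in 1 class. Cells were clustered and named without any of the 38 genes, though from other genes of the same cells. Oligodendrocyte-like cells, named from other markers such as the transcription factor Sox10 and the iron carrier Trf, were 3144 cells (24.6%) and 2272 cells (20.5%). They held 760603 of 846909 member UMIs (89.8%) and 200330 of 225422 (88.9%), against 21.4% and 20.3% of all UMIs. In both libraries 32 of the 38 members were at their highest in this class, against 4.87% of 12112 genes tested. The exceptions were Mbp, Pllp, Gal3st1, Myrf and Adamts4, each higher in the precursor-like class of at least 1 library, and Gsn, higher in the 7 ependymal cell-like cells of the GFP library. The members had been chosen with earlier results of these data known, so these counts describe where their RNA lay and do not test the label of the list.

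Within oligodendrocyte-like cells most members stood within 1.5-fold between the libraries. Levels are CPM of all UMIs in the class, without adjustment for transcript length. Of 38 members, 7 were at least 1.5-fold higher in the NeuroD1 library (18.4%), against 12% of 12131 genes tested. Only 2 members were at least 1.5-fold lower (5.26%), against 15.6%, and 29 lay between. At a limit of 2-fold 3 members were higher, against 4.14% of genes, and 1 was lower, against 7.68%. The median log2 ratio was 0.14 over the members and 0.03 over all genes. Counting intervals lay wholly beyond 1.5-fold for 8 members: Mbp, Mobp, Tmem88b, Efnb3, Adamts4 and Kcna1 on the higher side, and Klk6 and Car14 on the lower. Fa2h at 1.51-fold and Tspan2 at 1.499-fold were just outside and just inside the higher limit, and Opalin, at 0.676 times the GFP level, was just inside the lower one. Free Ttr RNA took 8842 and 2176 CPM of the same cells and mitochondrial RNA 2.79% and 4.95%. CPM without mitochondrial, ribosomal, haemoglobin, Ttr and vector UMIs was among 18 alternatives for the median log2 ratio. Over these the median lay between 0.03 and 0.18. All of the 8 members but Tmem88b stayed past 1.5-fold in 16 of 16 alternatives for single members.

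**Figure D1:**
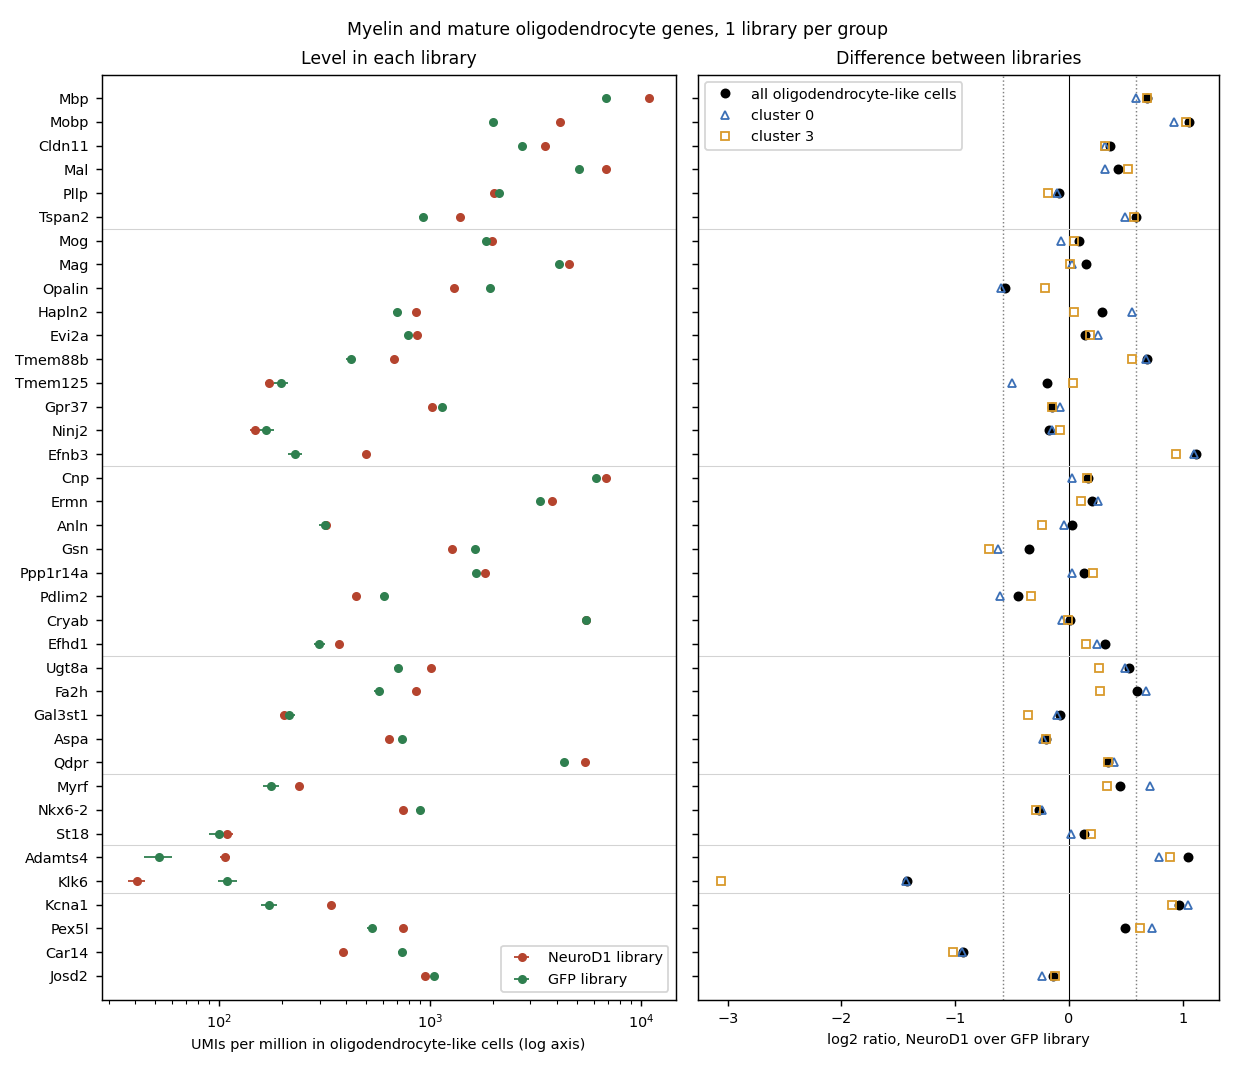
Left: level of each of the 38 members in oligodendrocyte-like cells of the NeuroD1 and GFP libraries, in CPM on a log axis, with 95% counting intervals. Right: log2 ratio of NeuroD1 over GFP in all oligodendrocyte-like cells (circles) and in clusters 0 (triangles) and 3 (squares), with dotted lines at 1.5-fold; Mobp, Efnb3, Kcna1 and Adamts4 lie to the right in all 3, Klk6 and Car14 to the left.

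Promoter sequence is shown for members at both ends of that range, so that the upstream DNA of genes that were higher, lower or alike can be read side by side. RefSeq promoters (build GRCm38.p6, not the mm39 build of the files) matched 27 of the 38 members by symbol, and each window printed is the 250 bases before an annotated start, 5′ to 3′ on the gene's strand. Capitals mark matches, on either strand, to ACAAAG or ACAATG, the core that Sox proteins such as Sox10 recognise, and to CTGGCAC or CTGGTAC, the motif known for Myrf. Mobp (chr9:120149492-120149741, + strand) and Tmem88b (chr4:155785875-155786124, - strand) were higher in the NeuroD1 library, Klk6 (chr7:43824294-43824543, + strand, the first of its starts) and Car14 (chr3:95904686-95904935, - strand) were lower, and Cnp (chr11:100574689-100574938, + strand) was alike.
Mobp: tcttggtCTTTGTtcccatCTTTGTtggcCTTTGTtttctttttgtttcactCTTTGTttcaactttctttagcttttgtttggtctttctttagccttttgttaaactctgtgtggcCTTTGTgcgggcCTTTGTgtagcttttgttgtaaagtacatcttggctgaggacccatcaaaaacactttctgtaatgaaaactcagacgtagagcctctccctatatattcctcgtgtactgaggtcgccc
Tmem88b: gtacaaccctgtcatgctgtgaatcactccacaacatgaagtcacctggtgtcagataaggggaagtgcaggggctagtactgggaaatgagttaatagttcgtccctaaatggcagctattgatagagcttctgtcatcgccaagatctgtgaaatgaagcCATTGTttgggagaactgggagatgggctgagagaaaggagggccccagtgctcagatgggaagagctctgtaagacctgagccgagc
Klk6: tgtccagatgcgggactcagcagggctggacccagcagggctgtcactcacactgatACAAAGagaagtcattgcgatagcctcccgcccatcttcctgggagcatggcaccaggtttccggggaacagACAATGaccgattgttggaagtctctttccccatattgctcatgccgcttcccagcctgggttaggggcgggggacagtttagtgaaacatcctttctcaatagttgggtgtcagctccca
Car14: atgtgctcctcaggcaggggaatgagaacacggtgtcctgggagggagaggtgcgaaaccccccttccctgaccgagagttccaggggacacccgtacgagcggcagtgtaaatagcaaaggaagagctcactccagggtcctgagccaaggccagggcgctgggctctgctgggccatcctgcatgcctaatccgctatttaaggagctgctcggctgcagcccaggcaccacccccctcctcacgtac
Cnp: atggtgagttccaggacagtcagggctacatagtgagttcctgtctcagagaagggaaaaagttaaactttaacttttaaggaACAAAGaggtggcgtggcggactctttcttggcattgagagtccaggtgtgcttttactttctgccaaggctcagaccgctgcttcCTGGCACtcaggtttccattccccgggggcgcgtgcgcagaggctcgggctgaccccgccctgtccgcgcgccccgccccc

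The Mobp window held 6 matches to the Sox core, Klk6 held 2, Tmem88b and Cnp held 1 each, and Car14 held 0. A Sox match was found in 13 of 35 member windows (37.1%), against 25.2% of 32841 promoter windows of the same length. A match to CTGGCAC or CTGGTAC was found in 5 of 35 member windows (14.3%), those of Mog, Mag, Hapln2 and Cnp, against 5.93% of all. These are letter matches in a short window. Members on either side of 1.5-fold held the Sox core, while Mog, Mag, Hapln2 and Cnp were all within 1.5-fold.

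Among the proteins of compact myelin and its membrane rafts, the basic proteins were the ones past 1.5-fold, both on the NeuroD1 side. Mbp, which holds the cytoplasmic faces of the membrane together, was at 10942 and 6818 CPM, a ratio of 1.60 (interval 1.58 to 1.63). Mobp, a smaller basic protein of the same layer, was at 4155 and 2001 CPM, a ratio of 2.08 (interval 2.02 to 2.13). Cldn11, the tight junction claudin of myelin, was at 3501 and 2721 CPM, a ratio of 1.29. Tspan2, a tetraspanin, was at 1388 and 926 CPM. The raft proteolipid Mal was at 6870 and 5105 CPM (1.35-fold). Pllp, another raft proteolipid, was at 2011 and 2139 CPM, a ratio of 0.940 (interval 0.915 to 0.966). Of these 6 genes, 2 (33.3%) were at least 1.5-fold higher, against 12% of all genes, and 0 were lower, against 15.6%. Their median log2 ratio was 0.51. Counts over groups this small, here and in the next paragraphs, are no result about the groups.

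Of the 10 surface and axon-facing proteins, 2 (20%) were at least 1.5-fold higher in the NeuroD1 library, against 12% of all genes. At least 1.5-fold lower were 0, against 15.6%, and the median log2 ratio was 0.11. Mog, on the outermost lamella, was at 1964 and 1849 CPM, a ratio of 1.06 (interval 1.03 to 1.09). Mag, the adhesion molecule that faces the axon, was at 4552 and 4117 CPM, a ratio of 1.11. Efnb3, an ephrin ligand on the oligodendrocyte surface, was further apart at 497 and 230 CPM, a ratio of 2.16 (interval 2.004 to 2.34). Tmem88b was at 675 and 421 CPM, a ratio of 1.60 (interval 1.51 to 1.70), and it was 1.46 in cluster 3 alone. Opalin, a sialylated membrane glycoprotein particular to oligodendrocytes, was at 1303 and 1928 CPM. Hapln2, a link protein of the matrix at nodes of Ranvier, was at 858 and 700 CPM (1.22-fold), with ratios of 1.47 in cluster 0 and 1.03 in cluster 3. Evi2a was at 870 and 792 CPM and the receptor Gpr37 at 1028 and 1143 CPM. Tmem125 was at 173 and 197 CPM and the adhesion protein Ninj2 at 148 and 167 CPM. The ratios of these 4 lay from 0.876 to 1.099.

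None of the 8 process and cytoskeleton genes was past 1.5-fold in the whole class, where 12% of all genes were higher and 15.6% lower. Their median log2 ratio was 0.08. In cluster 0 alone 2 of them (25%) were lower, against 19.9% of genes, and in cluster 3 alone 1 (12.5%), against 17.6%. Cnp, the cyclic nucleotide phosphodiesterase of non-compact myelin, was at 6862 and 6123 CPM, a ratio of 1.12. Ermn, a cytoskeletal protein of oligodendrocyte processes, was at 3795 and 3310 CPM, a ratio of 1.15. Cryab, a small heat shock protein that is also induced by stress in other cells, was nearly equal at 5508 and 5485 CPM, a ratio of 1.004 (interval 0.987 to 1.02). Ppp1r14a, an inhibitor of myosin phosphatase, was at 1823 and 1661 CPM, a ratio of 1.098. Gsn, which severs actin filaments, was at 1278 and 1632 CPM, a ratio of 0.783, and it was further apart in clusters 0 and 3 taken alone, at 0.648 and 0.615. Anln, an actin and septin scaffold, was at 323 and 318 CPM, Pdlim2 at 445 and 606 CPM and Efhd1 at 372 and 300 CPM.

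Of the 5 lipid, acetyl and pterin enzymes 1 (20%), Fa2h, was at least 1.5-fold higher in the NeuroD1 library, against 12% of all genes. In cluster 3 alone 0 were, against 16.4%. Ugt8a, the galactosyltransferase that makes galactosylceramide, was at 1013 and 705 CPM, a ratio of 1.44 (interval 1.37 to 1.503). Fa2h, the fatty acid hydroxylase of the same lipids, was at 863 and 572 CPM, a ratio of 1.51 (interval 1.44 to 1.59), which was 1.21 in cluster 3 alone. Gal3st1, which adds the sulfate that turns this lipid into sulfatide, was at 203 and 214 CPM, a ratio of 0.948 (interval 0.870 to 1.03). Aspa, which frees acetate from N-acetylaspartate, was at 642 and 740 CPM. Qdpr, the dihydropteridine reductase, was at 5468 and 4312 CPM, a ratio of 1.27 (interval 1.24 to 1.29).

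The 3 transcription factors among the members were within 1.5-fold, where 12% of all genes were higher and 15.6% lower. Myrf, the membrane-bound regulator that switches on the myelin genes, was at 241 and 177 CPM, a ratio of 1.36 (interval 1.24 to 1.49), and 1.65 in cluster 0 alone. Nkx6-2, a homeobox factor of mature oligodendrocytes, was at 743 and 894 CPM, and the zinc finger factor St18 at 110 and 99.96 CPM. Outside the list, Sox10 was at 323 and 170 CPM, a ratio of 1.90 (interval 1.74 to 2.08).

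The 2 secreted proteases stood at opposite ends. Adamts4, a metalloprotease made by oligodendrocytes, had 1112 and 170 UMIs, which are 107 and 51.8 CPM, a ratio of 2.07 (interval 1.76 to 2.44). Klk6, a kallikrein serine protease, had 424 and 360 UMIs, which are 40.8 and 110 CPM, 2.69-fold lower in the NeuroD1 library (ratio 0.372, interval 0.322 to 0.429). The Klk6 ratio was 0.0825 among cells with 1000 to 3000 UMIs and 0.477 after every cell was thinned to 500 UMIs, so its direction held while its size did not. Shares of cells with a Klk6 UMI were 5.92% (interval 5.12 to 6.80) and 7.75% (interval 6.68 to 8.92), and 1.75% and 3.35% after thinning, against 0.0272% and 0.277% of astrocyte-like cells at medians of 2470 and 1147 UMIs.

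Among the remaining 4 genes, Kcna1 was at least 1.5-fold higher in the NeuroD1 library and Car14 at least 1.5-fold lower. Of all genes, 12% were higher and 15.6% lower. Kcna1, a voltage-gated potassium channel subunit, was at 339 and 173 CPM, a ratio of 1.96 (interval 1.79 to 2.15). Pex5l, an accessory subunit of HCN channels, was at 743 and 530 CPM, a ratio of 1.40, and 1.66 in cluster 0 alone. Car14, a membrane-bound carbonic anhydrase, was at 387 and 737 CPM, 1.90-fold lower (ratio 0.525, interval 0.499 to 0.553). Josd2, a deubiquitinase, was at 950 and 1047 CPM. Of all 38 members, 8 overlap a protein-coding gene on the other strand in the GENCODE M21 annotation, Adamts4 and Car14, which overlaps Aph1a, among them, and no source used here says whether the counting used strand, so reads of the pair cannot be told apart.

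The libraries filled different clusters of the class, while member levels differed little between clusters of 1 library. There were 2727 and 238 cells in cluster 0, 293 and 2023 in cluster 3 and 124 and 11 in cluster 24. Cluster 3 was led by genes such as the complement component C4b, which was at 164 and 853 CPM in it and at 124 and 520 CPM in cluster 0. Within the GFP library, 0 of 38 members differed by 1.5-fold between clusters 0 and 3 in either direction, where 11.0% of 9256 genes were higher and 12.6% lower. Within the NeuroD1 library 1 member did, where 13.2% of 11275 genes were higher and 15.2% lower: Klk6, at 42.5 CPM in cluster 0 and 12.1 CPM (6 UMIs) in cluster 3. Clusters had been built on other genes of the same cells, so the shares for all genes are partly set by the clustering.

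Between libraries, more members were past 1.5-fold in cluster 0 alone than in the whole class, and so was a larger share of all genes. In cluster 0, 9 members were at least 1.5-fold higher in the NeuroD1 library, against 18.8% of 11326 genes, and 5 were lower, against 19.9%. The 5 lower members were Klk6, Car14, Gsn, Opalin and Pdlim2. In cluster 3, 6 members were higher, against 16.4% of 9256 genes, and 3 were lower, against 17.6%. Mobp was at 4195 and 2217 CPM in cluster 0 and at 4003 and 1964 CPM in cluster 3. Car14 was at 386 and 740 CPM in cluster 0 and at 364 and 739 CPM in cluster 3, so its level went with the library in both clusters. Median log2 ratios over the members were 0.03 in cluster 0 and 0.13 in cluster 3.

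**Figure D2:**
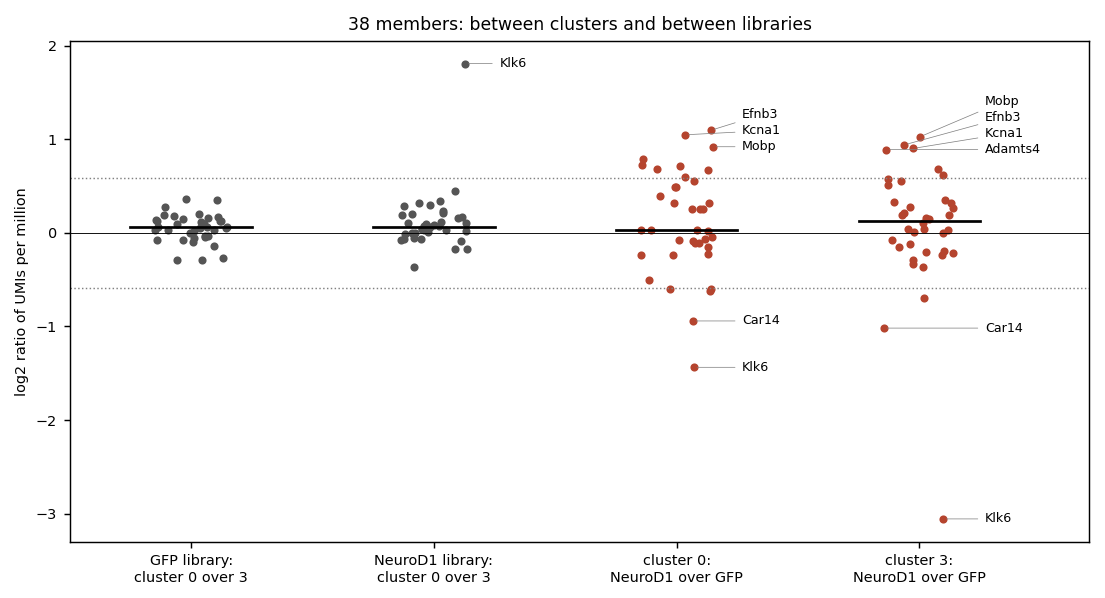
Log2 ratios of CPM for the 38 members, each point 1 member and each bar the median: cluster 0 over cluster 3 within a library (grey) and NeuroD1 over GFP library within a cluster (red), with dotted lines at 1.5-fold. Klk6 in the NeuroD1 library is the only grey point outside the dotted lines, while 14 and 9 red points lie outside them. Of all genes tested, 18.8% were at least 1.5-fold higher and 19.9% lower in cluster 0, and 16.4% and 17.6% in cluster 3.

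Oligodendrocyte-like cells with a Klk6 UMI were set against the others of their library, a split chosen after the data were seen. There were 186 and 176 of them, with at most 14 and 13 Klk6 UMIs in a cell, and 97 and 101 of them had 1. Of the other 37 members, 1 (Anln) was at least 1.5-fold higher in cells with Klk6 in both libraries, against 2.40% of 9167 genes, and 1 (Opalin) was at least 1.5-fold lower, against 2.66%. Both counts are near the share of all genes and are no result about the members as a list. Anln was at 607 CPM with Klk6 and 297 CPM without in the NeuroD1 library, a ratio of 2.04 (interval 1.86 to 2.24). In the GFP library Anln was at 466 and 300 CPM, a ratio of 1.55 (interval 1.31 to 1.84). Opalin was at 446 and 1382 CPM, a ratio of 0.322 (interval 0.291 to 0.356), for NeuroD1, and at 1051 and 2034 CPM, a ratio of 0.517 (interval 0.464 to 0.574), for GFP. Hapln2 was higher in cells with Klk6, with ratios of 1.55 and 1.40, and Mal was lower, with ratios of 0.727 and 0.643. Cells with Klk6 had more UMIs, at medians of 4213 and 1850 against 2881 and 1238, and the part of depth in these ratios was not tested.

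Per cell, members took a larger share of UMIs in the NeuroD1 library. The median oligodendrocyte-like cell drew 7.25% of its UMIs from the 38 members for NeuroD1 (quartiles 6.71 to 7.85) and 5.99% for GFP (quartiles 5.33 to 6.67). After thinning to 500 UMIs the medians were 7.2% and 6%, and the ranges between quartiles (6.4 to 8.2 and 5 to 6.8) overlapped. A median of 29 and 22 members had a UMI in a cell and 16 and 15 after thinning. Mbp RNA was found in 99.9% and 99.4% of oligodendrocyte-like cells, and in 99.1% and 94.9% after thinning. Astrocyte-like cells drew 0.151% and 0.155% of their UMIs from the members.

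**Figure D3:**
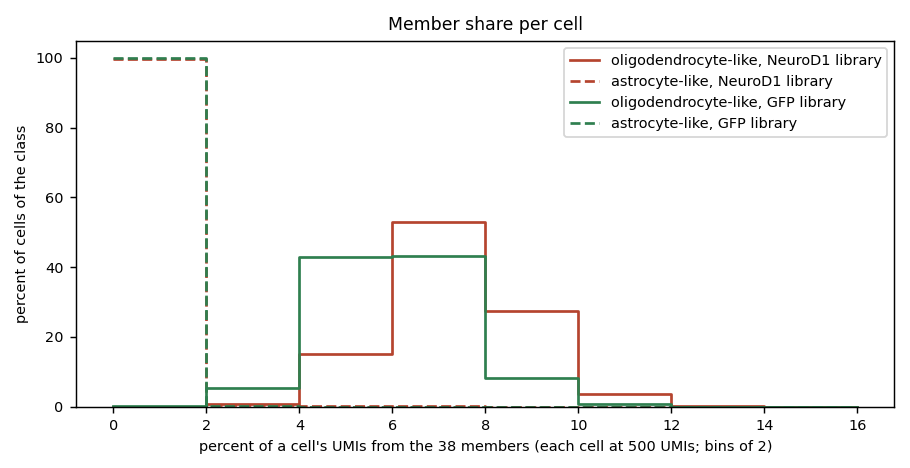
Share of each cell's UMIs that came from the 38 members, with every cell thinned to 500 UMIs, as the percent of cells in bins 2 percentage points wide. Oligodendrocyte-like cells (solid lines) centre on 7.2% for NeuroD1 and 6% for GFP, apart from astrocyte-like cells (dashed lines), which fall almost entirely in the lowest bin.

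In classes that do not make myelin, members were present at a low fraction of their oligodendrocyte-like level that differed between classes. The median over the 38 members was 0.912% and 1.90% in astrocyte-like cells, 1.37% and 1.85% in microglia-like cells, 1.39% and 1.69% in endothelial cell-like cells, and 0.510% and 1.66% in choroid plexus epithelium-like cells. It was 1.55% and 2.06% in pericyte-like, 2.37% and 1.64% in smooth muscle cell-like and 5.62% and 2.23% in fibroblast-like cells. Border macrophage-like cells had 3.66% and 1.39%, neuron-like cells 1.13% and 5.04%, immature neuron-like cells 0.975% and 1.55%, and T or NK lymphocyte-like cells 6.13% and 1.39%. A few cells could carry much of it: 18 of 1756 endothelial cell-like cells held 21.8% of that class's member UMIs in the NeuroD1 library, without which the median was 0.775%. In T or NK lymphocyte-like cells of the NeuroD1 library 1 of 59 cells held 75.5%, without which the median was 0.757%. In neuron-like cells of the GFP library 2 of 198 cells held 28.0%, without which the median was 3.42%. The astrocyte-like, microglia-like, endothelial cell-like and neuron-like classes were drawn mainly from different clusters in the 2 libraries, so their values are read within each library.

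**Figure D4:**
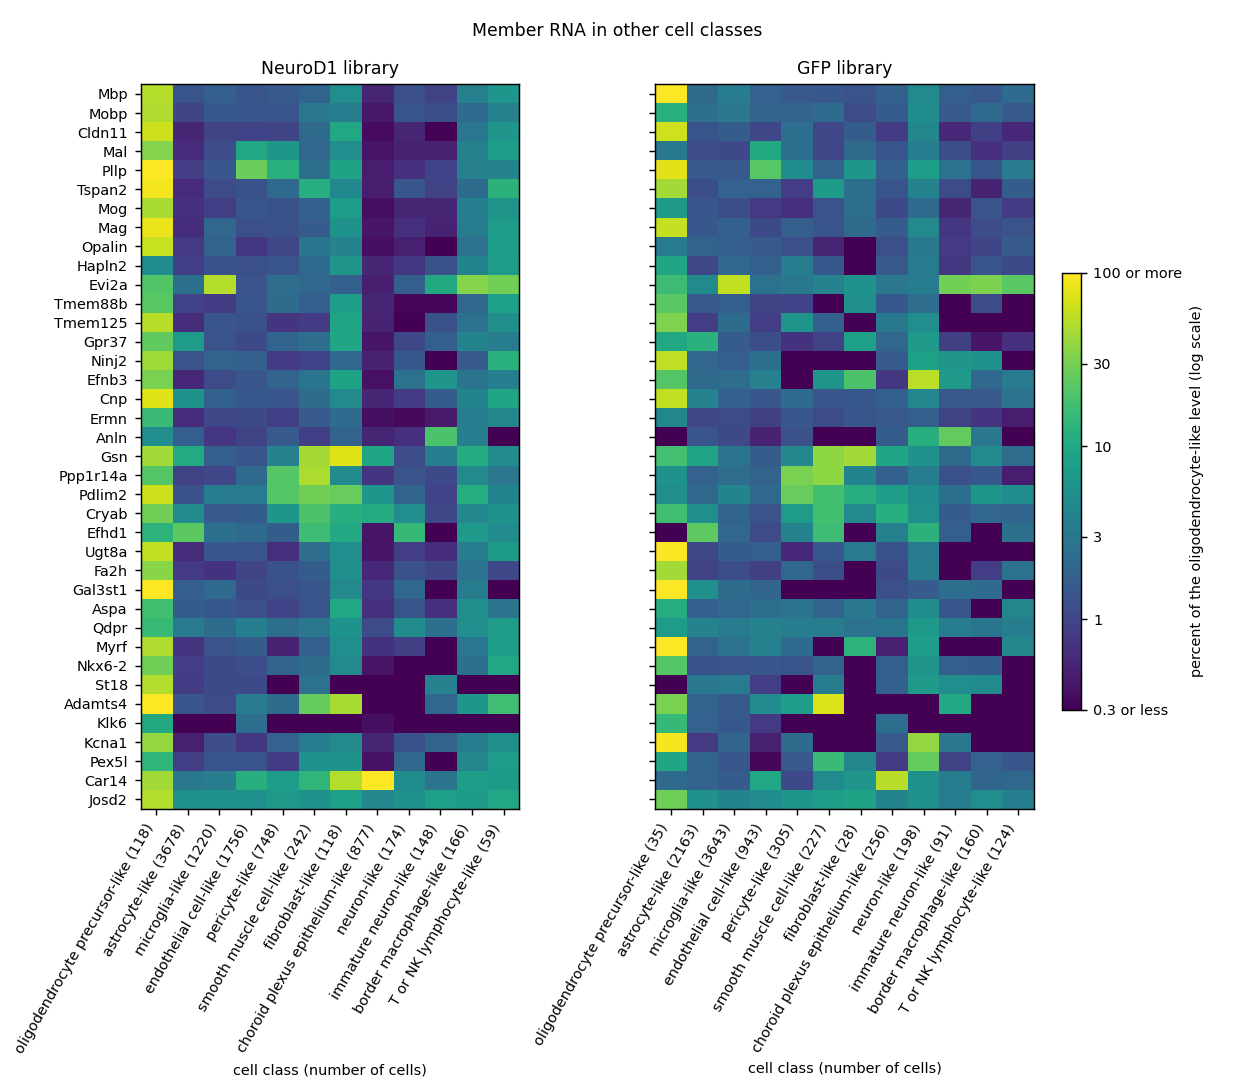
Level of each member in other cell classes as a percent of its oligodendrocyte-like level in the same library, on a log colour scale; the number of cells of each class is in parentheses. Most members are low in most classes, with a median of 0.912% and 1.90% in astrocyte-like cells, while the precursor-like column and single genes such as Evi2a in microglia-like cells and Car14 in choroid plexus epithelium-like cells stand out in both libraries.

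Counting precursor-like cells, 19 of the 38 members reached 25% of their oligodendrocyte-like level in another named class of both libraries, as did 97.6% of 12112 genes. Set against the median of each class, 12 members stood at least 5 times higher in both libraries, a mark that 98.3% of genes passed. Evi2a lies inside Nf1 on the other strand and overlaps Evi2 on its own strand, so strand cannot separate reads of Evi2a and Evi2. Evi2a was at 458 and 463 CPM in microglia-like cells, 52.6% and 58.5% of its oligodendrocyte-like level. It was also at 33.9% and 31.6% of that level in border macrophage-like cells. Car14 was at 378 and 392 CPM in choroid plexus epithelium-like cells, which secrete cerebrospinal fluid. These were 97.8% and 53.2% of its oligodendrocyte-like level, so Car14 was alike between libraries in that class and 1.90-fold apart in oligodendrocyte-like cells.

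Of the 8 process and cytoskeleton members, 5 passed that mark in smooth muscle cell-like cells of both libraries (Gsn, Ppp1r14a, Pdlim2, Cryab and Efhd1). In pericyte-like cells 2 passed it, in choroid plexus epithelium-like cells 2 (Gsn and Cryab) and in fibroblast-like cells 1. The share of all genes that pass the mark in a single class was not computed. Counts by class, here and below, are thus no result about the members as a list. Cnp was at 2.35% and 1.37%, Ermn at 1.56% and 1.16% and Anln at 0.891% and 0% in smooth muscle cell-like cells. In smooth muscle cell-like cells Ppp1r14a was at 899 and 623 CPM (49.3% and 37.5% of its oligodendrocyte-like level), Gsn at 578 and 613 CPM (45.2% and 37.6%) and Cryab at 1078 and 935 CPM (19.6% and 17.05%). Pericyte-like cells had Ppp1r14a at 21.7% and 30.8% and Pdlim2, an actin-associated PDZ and LIM protein, at 21.2% and 25.9%. Gsn reached 74.9% and 44.7% in fibroblast-like cells, which were only 118 and 28 cells. Adamts4 was at 25.6% and 74.4% in smooth muscle cell-like cells, from 19 and 11 UMIs.

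In endothelial cell-like cells 2 of the 6 compact myelin and raft members, Pllp and Mal, passed the mark in both libraries, and so did Car14. Pllp was at 546 and 474 CPM in endothelial cell-like cells, 27.1% and 22.2% of its oligodendrocyte-like level, with a UMI in 65.1% and 37.96% of cells. Mal was at 9.83% and 10.2% there. In astrocyte-like cells 1 of the 10 surface members, the G protein-coupled receptor Gpr37, passed it, at 7.21% and 12.2%. Efhd1, a mitochondrial calcium-binding protein, was at 23.2% and 23.5% there. Anln, which also acts in cell division, was at 19.5% and 24.6% in the immature neuron-like cluster, which was led by Top2a and Mki67, genes of dividing cells. Mobp, Mog, Opalin and Ermn did not reach 25% of their oligodendrocyte-like level in any class outside the lineage in either library.

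Precursor-like cells, 118 and 35 in the 2 libraries, were the class nearest to oligodendrocytes in member RNA. A split by Enpp6, which is not a member, separated them and was chosen after the data were seen. The 16 and 8 cells with an Enpp6 UMI drew a median of 3.01% and 3.04% of their UMIs from the members (range 1.61 to 7.57 and 1.24 to 6.30). The 102 and 27 cells without one had medians of 0.489% and 0.391%, and 89 and 24 of them were under 1%. Pdgfra, the receptor that marks precursors, was at 101 and 0 CPM (13 and 0 UMIs) with Enpp6 and at 1014 and 1160 CPM without. Bmp4 was at 567 and 406 CPM with Enpp6 against 8.56 and 28.3 CPM (3 and 1 UMIs) without. The kinase gene Fyn was at 2142 and 1774 against 251 and 396 CPM. Gpr17 and Neu4, among the leading genes of the whole precursor-like cluster, were higher with Enpp6 only in the NeuroD1 library. Gpr17 was at 652 and 259 CPM with Enpp6 against 291 and 255 CPM without, and Neu4 at 419 and 222 against 334 and 255 CPM. For GFP these values rest on 6 to 9 UMIs. Cells with Enpp6 had more UMIs, at medians of 8038 and 3583 against 2746 and 1178. Their median doublet score was 0.118 and 0.0797, against 0.0240 and 0.0778 without Enpp6. The part of depth, and of doublets that passed the filter, was not tested.

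Member levels in those Enpp6 cells, as a percent of the oligodendrocyte-like level, differed widely between genes. In both libraries 11 of the 38 members were at 50% or more of their oligodendrocyte-like level, a mark that 35.8% of 12112 genes passed. The 11 are thus no more than the share of all genes and are no result about the members as a list. Under 25% of that level were 15 of the 38, against 21.1% of genes. The 11 were Mbp, Cldn11, Pllp, Mag, Cnp, Ugt8a, Fa2h, Gal3st1, Myrf, Adamts4 and Kcna1. Mbp was at 11828 and 15039 CPM there, 108% and 221% of its oligodendrocyte-like level (intervals 103 to 114 and 200 to 243). Cnp was at 119.5% and 102%, Mag at 88.1% and 76.3%, and Cldn11 at 86.02% and 132%. The enzyme Gal3st1 was at 176% and 276%, Ugt8a at 85.01% and 168%, and Myrf, with 34 and 12 UMIs, at 109.5% and 251%. Adamts4 rested on 31 UMIs for NeuroD1 and 1 for GFP. In the GFP library Fa2h rested on 8 UMIs (interval 22.3% to 102%) and Kcna1 on 6 (interval 47.1% to 279%).

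The 15 low members included genes that share a compartment with the high ones. Mobp was at 931 and 296 CPM in Enpp6 cells, 22.4% and 14.8% of its oligodendrocyte-like level, although it encodes a compact myelin basic protein like Mbp. Mal was at 5.65% and 5.07%, while Pllp, another raft proteolipid, was at 117% and 72.6%. Mog was at 21.3% and 6.00%, Opalin at 10.7% and 3.83%, Ermn at 7.77% and 10.1%, and Qdpr at 14.9% and 9.43%. The rest of the 15 were Hapln2, Gpr37, Anln, Gsn, Ppp1r14a, Pdlim2, Efhd1, Aspa and Pex5l. The 15 were sorted by point values, and in the GFP library each rested on 0 to 11 UMIs. Only for Mal, Opalin, Ermn and Qdpr did the intervals lie wholly under the limit of the low set in both libraries. Upper limits for GFP were 29.1% for Mobp and 46.3% for Hapln2, for example. Whether the others were under that limit in both libraries is thus not settled by these counts. The other 12 members lay between or were split between libraries, all but Cryab on fewer than 20 UMIs in the GFP library. Of the members past 1.5-fold between libraries in oligodendrocyte-like cells, Mbp, Fa2h, Adamts4 and Kcna1 were in the high set and Mobp in the low one.

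**Figure D5:**
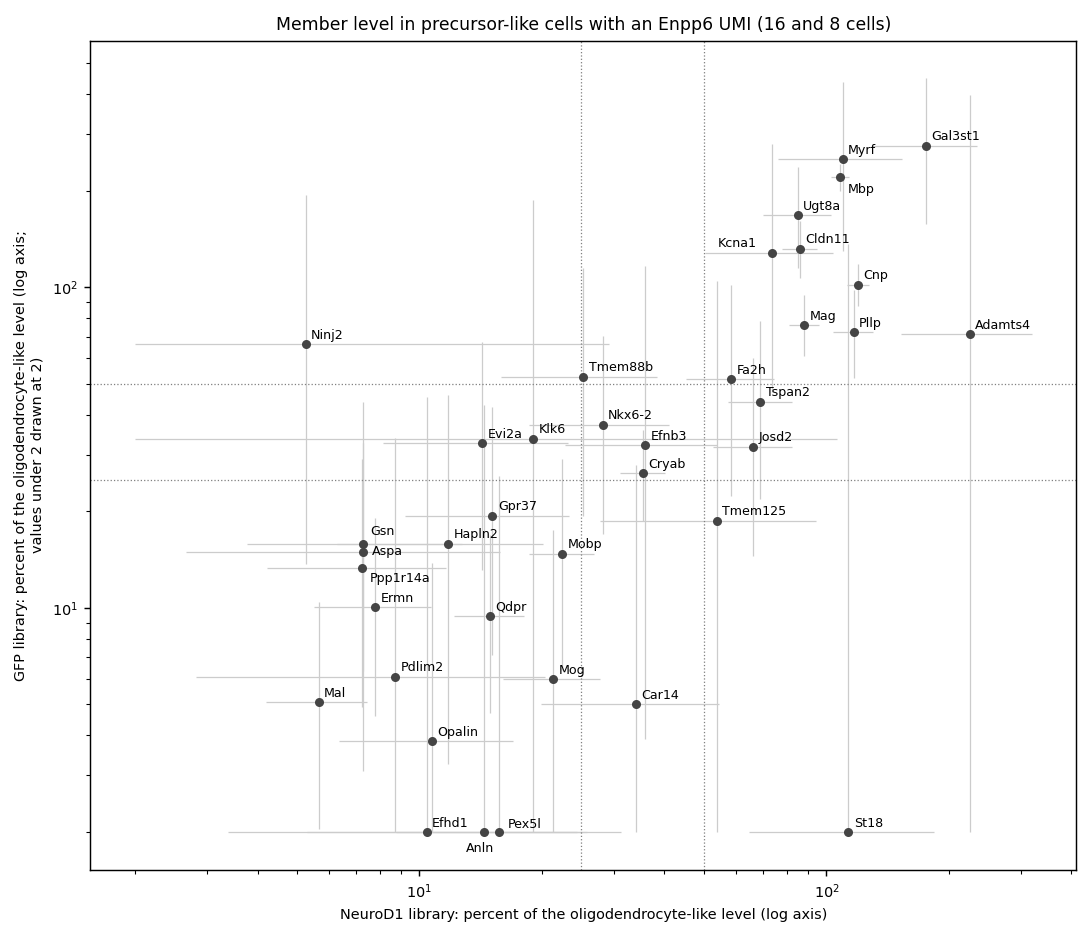
Level of each member in precursor-like cells with an Enpp6 UMI (16 cells for NeuroD1, 8 for GFP) as a percent of its oligodendrocyte-like level in the same library, both axes log, with 95% counting intervals and dotted lines at 25% and 50%. Mbp, Cnp, Mag and Gal3st1 lie at the upper right in both libraries and Mal, Opalin, Ermn and Mog at the lower left.

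A few precursor-like cells without Enpp6 had a high member share as well. There were 8 and 1 of them, each above 5%, and they held 86.7% and 62.6% of the member UMIs of the cells without Enpp6. Their median was 12270 UMIs for NeuroD1, and the 1 cell for GFP had 2693 UMIs. Mobp was at 59.7% and 9.90% of its oligodendrocyte-like level in cells without Enpp6, from 16 and 2 cells with a UMI, and Opalin at 79.1% and 2.94%, from 12 and 1. The part of their depth, and of doublets that passed the filter, in these values was not tested.

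Other lineage genes were read from lists that hold no member, to be set against the 12% of all genes higher and 15.6% lower. Of 17 oligodendrocyte transcription factor genes tested in oligodendrocyte-like cells, 3 (17.6%) were at least 1.5-fold higher in the NeuroD1 library and 2 (11.8%) lower, with a median log2 ratio of 0.17. Among 26 genes of sphingolipid and lipid synthesis 6 (23.1%) were higher and 0 lower, with a median of 0.20. They included the desaturases Fads1, at 55.4 and 21.6 CPM (2.56-fold, interval 1.999 to 3.33), and Scd1, at 103 and 51.5 CPM (1.995-fold, interval 1.70 to 2.36). Of 25 axoglial and paranodal genes 4 (16%) were higher and 2 (8%) lower, with a median of -0.04. Gjc3, a connexin gene of oligodendrocytes, was at 571 and 322 CPM, a ratio of 1.77 (interval 1.66 to 1.895). Of 39 other oligodendrocyte-enriched genes 9 (23.1%) were higher and 3 (7.69%) lower, with a median of 0.15. Fth1, the ferritin heavy chain that stores iron, was at 24785 and 9946 CPM, a ratio of 2.49 (interval 2.46 to 2.52). Trf, the iron carrier transferrin, was at 6002 and 10242 CPM, a ratio of 0.586 (interval 0.578 to 0.594).

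The lists of earlier stages had medians on opposite sides. Of 9 precursor genes tested 0 were at least 1.5-fold higher in the NeuroD1 library and 5 (55.6%) lower, with a median log2 ratio of -0.64. Ptprz1, a receptor phosphatase of precursors that astrocytes also express, was at 13.6 and 36.9 CPM, a ratio of 0.368 (interval 0.287 to 0.473). Of 13 genes of committed and newly formed oligodendrocytes 1 (7.69%) was higher and 2 (15.4%) lower, with a median of 0.26, and in cluster 3 alone 5 of 11 were higher and 1 lower, with a median of 0.35. Itpr2, an intracellular calcium channel, was at 12.9 and 34.1 CPM, a ratio of 0.378 (interval 0.292 to 0.490). The 5 lower precursor genes rested on 17 to 317 UMIs each in the NeuroD1 library.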

How the data were processed

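Fresh hippocampus was dissociated with papain and cells were loaded on a microwell chip, per the labels' protocols, while the description field names another platform, so which was used is unclear. The matrices, as deposited by the authors, hold raw UMI counts. FastQC, fastp, cutadapt, STAR, featureCounts and build mm39 are named without versions, per the submitters' processing notes. No source used here gives the annotation release.

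Barcodes start at 500 UMIs in both files. A minimum of 200 genes and a maximum of 20% mitochondrial UMIs removed 131 and 104 cells, and Scrublet then removed 485 (3.65%) and 556 (4.78%) cells as doublets. Counts scaled to 10000 per cell were clustered on 3000 variable genes without the members, with 30 components, 15 neighbours and Leiden resolution 1. The 28 clusters were named "X-like" from non-member markers, with at least 3 of them among the 50 leading genes detected in 25% of cells; 2 stayed unnamed. For each class of each library the raw counts were added up. Intervals (95%) are exact Poisson for CPM, exact conditional binomial for ratios and Clopper-Pearson for shares of cells; UMIs of 1 cell are not independent, so these cover counting error only. A gene was set against the 1.5-fold limit where the 2 sums added to 20 UMIs or more, with 0.5 UMI added for log2 ratios.

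Members and lists were chosen with earlier results of these data known. Full values were given for the 12 members with the highest mean CPM, those whose interval lay beyond 1.5-fold and those at 25% or more of their oligodendrocyte-like level in another class of both libraries; genes of other lists were named by interval, at most 4 per list and direction. C4b, Pdgfra, Bmp4, Fyn, Gpr17 and Neu4 were chosen for the text after the data were seen. So were the splits by Enpp6 and Klk6, the limits for cluster names, the motifs and the promoters printed. Clustering used scanpy 1.11.5 with leidenalg 0.10.2 and igraph 0.11.9, intervals scipy 1.17.1, tables pandas 2.3.3 and numpy 2.4.6, and plots matplotlib 3.10.9, all under Python 3.11.15. The interval procedure was tested on simulated counts. Alternatives covered filters, doublets, clustering, thinning, scaling, depth, weights of cells and clusters, free RNA and shared barcodes.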

Additional observations from a re-analysis of the deposited data

How the results depend on the processing

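No paired analysis was possible because each group has 1 library. Over 18 alternatives the median log2 ratio of the members lay between 0.03 and 0.18. Of 92 alternative values for the list, its clusters, other classes and cells, 82 stayed within a limit and 10 moved further. The limit was a factor of 1.5 for counts of members, and was drawn from counting intervals for the other values. None of the median log2 ratios changed sign. With a limit of 2-fold, 3 members (Mobp, Efnb3 and Adamts4) were higher, against 4.14% of genes, and 1 (Klk6) lower, against 7.68%. In cluster 0 alone the median was 0.0289 and 5 members were lower, against 19.9% of genes. That alternative, like cluster 3 alone, equal weights and the removal of shared barcodes, was chosen after seeing the data. Thinning gave a median level of 1.32% in astrocyte-like and 0.703% in choroid plexus epithelium-like cells of the NeuroD1 library. With doublets kept, it was 2.56% in microglia-like cells of the GFP library and 4.49% and 5.15% in endothelial cell-like cells of the NeuroD1 and GFP libraries, and without the 1% of cells richest in member UMIs it was 0.775% in the former. The cause was not tested, except that these settings keep other cells or UMIs. For single members 491 of 608 alternative values stayed within their interval, and 22 crossed a ratio of 1, for 6 members whose own ratios were 0.876 to 1.098 (Mog, Tmem125, Ninj2, Anln, Cryab and St18), at 0.824 to 0.997 for Anln and 1.18 for Ninj2. Of the 8 members beyond 1.5-fold, all but Tmem88b stayed past it in 16 of 16 alternatives. Members under 20 UMIs in a class are limited by depth.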
